A study of Homo sapiens with 9 samples.

Results

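The comparison of SGPL1 overexpression with control took in 6 of the 9 libraries of the series, namely the 3 titled nTERT OE and the 3 titled nTERT Control, and every gene counted in them. N/TERT cells are human epidermal keratinocytes immortalised with telomerase, grown here with no treatment. Control cells carry the label WT, and the others (OE cells) the genotype label SGPl1 OE. The remaining 3 libraries came from SGPL1 knockout cells made with CRISPR (KO) and entered only to help estimate the spread between libraries and, for a few genes, as a level set beside the others. The promoter and vector that drive the added SGPL1, and how many cell clones the libraries came from, are not stated in the sources used here. The submitters describe the libraries of a group as biological replicates, and p-values measure the spread between these libraries, which may be partly technical.

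SGPL1 encodes sphingosine-1-phosphate (S1P) lyase, an enzyme of the endoplasmic reticulum. It cleaves the lipid mediator S1P irreversibly into phosphoethanolamine and a fatty aldehyde, the only exit from sphingolipid metabolism. S1P acts on a family of surface receptors and, inside the cell, on calcium and other signals. In keratinocytes S1P is known to restrain growth and to promote differentiation, and ceramides made from the same precursors form the lipid barrier of the skin. Inherited loss of the lyase includes scaling skin (ichthyosis) among its signs.

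Values are CPM, counts relative to the library total after TMM scaling between libraries, given as the mean ± SD of n = 3 libraries. Differences are log2 fold changes of OE against control ± SE, and adjusted p comes from the quasi-likelihood test of edgeR, with Benjamini-Hochberg adjustment across 13390 genes. A gene rose or fell where adjusted p was under 0.05. The libraries held 8730711 to 13330479 counts, the most in OE library 3, with a count at 17893 to 18988 genes, and 3 counts corresponded to 0.225 to 0.344 CPM. Correlations of log2 CPM were 0.982 to 0.985 within and 0.965 to 0.974 between the groups. Principal component 1 of the 6 libraries held 47.8% of the variance and separated OE from control libraries. Component 2 (15.5%) set OE library 3 (24.95) and control library 1 (18.46) apart from the others (-12.61 to -7.28). All 12 keratinocyte markers were measured, with a summed level of 33442 to 34067 CPM in control and 37266 to 40445 CPM in OE libraries. Of the fibroblast markers 4 of 10 (COL1A2, COL3A1, LUM and POSTN), of the melanocyte markers 3 of 8 (TYR, DCT and SOX10), of the blood, endothelial and immune markers 8 of 12 (PTPRC, CD3E and PECAM1 among them) and of the secretory epithelial markers 4 of 6 had 0 counts in all 6 libraries. Other members were detected. In the highest library FAP had 70.1 CPM, COL1A1 27.9, MITF 98.4, CD14 4.8, EPCAM 94.8 and MUC1 66.3 CPM.

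Overexpression of SGPL1 was accompanied by a broad shift in the keratinocyte transcriptome. Genes of mitosis and DNA replication, amino acid supply and tRNA charging, and the EGF receptor pathway were higher in OE cells. Cell cycle inhibitors of the CDKN2A locus, p53 targets, the mucosal keratins KRT4 and KRT13, mitochondrially encoded RNA and histone mRNA were lower. In all, 2493 of 13390 tested genes (18.6%) passed the test, 1242 higher (9.28%) and 1251 lower (9.34%), of which 196 (1.46%) were at least 2-fold higher and 255 (1.90%) at least 2-fold lower. Libraries of the 2 groups did not overlap at 4662 genes (34.8%), which included 2425 of the genes that passed. The median absolute log2 fold change was 0.55 among genes that passed and 0.21 among all, so most differences were modest. With 1 library left out, 868 to 1216 genes were higher and 843 to 1250 lower. Percentages given with list counts below are the share of tested members that passed in either direction. They are to be read against the 18.6% of all genes.

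**Figure D1:**
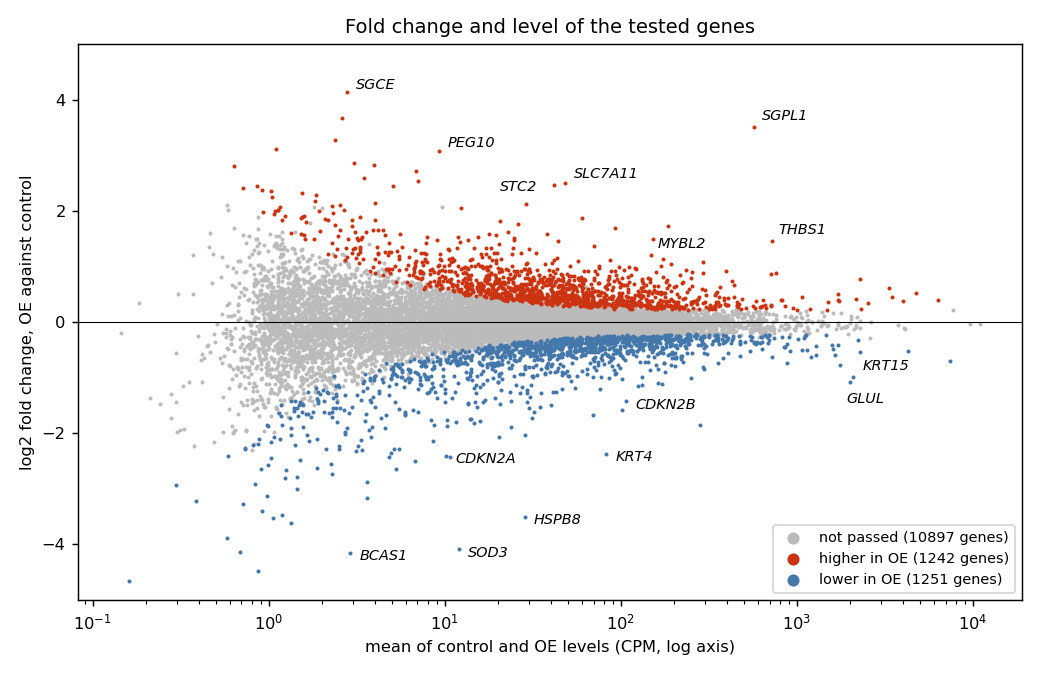
The log2 fold change of OE against control (vertical axis) is plotted against the mean of the control and OE levels in CPM (horizontal log axis) for each tested gene except PXDN, which had no counts in OE cells. Red points are the 1242 genes higher and blue points the 1251 genes lower in OE cells; SGPL1 stands apart at a log2 fold change of 3.51.

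The SGPL1 gene (ENSG00000166224), on chromosome 10, 70815948 to 70881184, plus strand (GRCh38), had 83.9, 95.1 and 98.3 CPM in controls and 1132, 1104 and 929 CPM in OE libraries. Every OE library lay far above every control library. The level was 11.4-fold higher (3.51 ± 0.09, adjusted p = 4.9e-18), the strongest result of the fit by p, and the KO mean was 59.6 CPM. Counts per gene cannot separate transcripts of the added copy from those of the cell's own gene.

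Of 11 tested S1P turnover enzymes besides SGPL1, 0 rose and 3 fell (27.3%, against 18.6% of all genes called and 9.34% lower), with a median log2 fold change of -0.21 against -0.01 over all genes. SGPP1, the phosphatase that returns S1P to sphingosine, had 78.7, 82.6 and 78.8 CPM in controls and 63.4, 56.3 and 63.7 CPM in OE libraries, with no overlap between the groups (-0.39 ± 0.10, adjusted p = 0.00722). The call was lost without OE library 2 (adjusted p = 0.0516). ASAH1, the lysosomal acid ceramidase, fell from 164 to 133 CPM (-0.30 ± 0.08, adjusted p = 0.0128), and lost its call without control library 1 or OE library 2 (adjusted p up to 0.12). ACER2, the Golgi ceramidase, fell from 5.91 to 2.93 CPM (-1.03 ± 0.29, adjusted p = 0.0132), and lost it without control library 2 or OE library 3 (adjusted p up to 0.107). Without OE library 2, 1 member of the list fell. The kinases that form S1P did not pass: SPHK1 had 4.15, 6.95 and 4.94 CPM in controls and 6.31, 7.06 and 8.75 CPM in OE libraries (0.47 ± 0.30, adjusted p = 0.308), and SPHK2 had 17.3 ± 1.46 CPM in control and 15.9 ± 1.59 CPM in OE cells (-0.12 ± 0.16, adjusted p = 0.659). ALDH3A2, the dehydrogenase that oxidises the fatty aldehyde released by the lyase, had 162, 150 and 155 CPM in controls and 140, 136 and 127 CPM in OE libraries. Its groups did not overlap, but the difference of -0.21 ± 0.08 did not pass (adjusted p = 0.0644).

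Among 33 tested enzymes of ceramide, sphingomyelin and glycosphingolipid metabolism, 3 rose and 6 fell (27.3%), with a median log2 fold change of -0.05. Of all genes 18.6% were called, 9.28% higher and 9.34% lower. Ceramide-forming enzymes changed in both directions. SPTLC3, a subunit of serine palmitoyltransferase, the entry enzyme of the pathway, had 23.7, 27.1 and 20.3 CPM in controls and 13.9, 14.9 and 11.2 CPM in OE libraries (-0.84 ± 0.15, adjusted p = 0.000231). CERS3, the ceramide synthase that attaches the ultra-long acyl chains of barrier ceramides, had 57.7, 49 and 45.8 CPM in controls and 38.6, 26.7 and 23.9 CPM in OE libraries (-0.79 ± 0.14, adjusted p = 0.000244). Both were lower in every OE library than in any control library. CERS6, a ceramide synthase with a preference for shorter chains, fell from 102 to 67.3 CPM (-0.60 ± 0.11, adjusted p = 0.00039), although 43.8% of its exon bases are shared with another gene, so its counts are uncertain. SAMD8, which makes ceramide phosphoethanolamine, fell from 72.4 to 52.7 CPM (-0.46 ± 0.11, adjusted p = 0.00429). PSAP, precursor of the saposins that help lysosomal enzymes reach sphingolipids, fell from 1875 to 1337 CPM (-0.49 ± 0.08, adjusted p = 0.000175). SMPD4, a neutral sphingomyelinase, rose from 99.1 to 133 CPM (0.42 ± 0.09, adjusted p = 0.00153). CERS4, another ceramide synthase, had the largest difference of the list, with 2.07, 2.11 and 3.6 CPM in controls and 5.09, 5.04 and 4.59 CPM in OE libraries (0.92 ± 0.28, adjusted p = 0.0236). B4GALT6, a lactosylceramide synthase, rose from 6.93 to 11.7 CPM (0.75 ± 0.25, adjusted p = 0.0416). CERS4 lost its call without control library 1 or 2 or OE library 2 (adjusted p up to 0.104), and B4GALT6 without any library but OE library 3 (up to 0.149). Without control library 2 or OE library 2, the higher members numbered 1. CERS4 and B4GALT6 were named after their values were seen.

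None of the tested S1P receptors passed. S1PR3 had 24.1, 17.3 and 21 CPM in controls and 27.1, 27.6 and 19.7 CPM in OE libraries (0.25 ± 0.17, adjusted p = 0.349), with overlapping groups. S1PR5 had 29 ± 6.35 CPM in control and 33.8 ± 6.8 CPM in OE cells (0.21 ± 0.15, adjusted p = 0.362), and S1PR1 (0.57 ± 0.28, adjusted p = 0.178) and S1PR2 (0.63 ± 0.34, adjusted p = 0.217) did not pass either. The transporters ABCC1 (0.07 ± 0.10) and ABCG2 (0.20 ± 0.12), which can carry S1P out of cells, were short of the threshold (adjusted p = 0.676 and 0.271). Of the 9 tested receptors and exporters, 1 fell: ABCA1, the cholesterol exporter, from 33.7 to 22.2 CPM (-0.60 ± 0.17, adjusted p = 0.0143). Its call rested on control library 3, without which adjusted p was 0.126. Downstream of the lyase, phosphoethanolamine feeds phosphatidylethanolamine synthesis, where 1 of 12 tested genes rose and 2 fell (25%, against 18.6% of all genes). ETNK1, ethanolamine kinase, fell from 39.5 to 31.1 CPM (-0.35 ± 0.12, adjusted p = 0.0421), PCYT1A, the choline branch enzyme, fell from 143 to 119 CPM (-0.26 ± 0.08, adjusted p = 0.0227), and PEMT, which methylates phosphatidylethanolamine to phosphatidylcholine, rose from 6.1 to 9.41 CPM (0.63 ± 0.21, adjusted p = 0.0393). Each of these 3 calls was lost when any of 4 or 5 single libraries was left out (adjusted p up to 0.159), with ETNK1 keeping its call only without OE library 1 and PEMT likewise. PCYT1A lost its call without any control library or OE library 2. PCYT2, the rate-limiting enzyme of the ethanolamine branch, did not pass (-0.11 ± 0.10, adjusted p = 0.501).

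Calcium genes, the other theme of the series, gave 4 higher and 4 lower of 34 tested (23.5%, against 18.6% of all genes), with a median of -0.03. ATP2A2, which pumps calcium into the endoplasmic reticulum and is the Darier disease gene, had 593, 637 and 648 CPM in controls and 628, 653 and 599 CPM in OE libraries. The groups overlapped and the gene did not pass (0.00 ± 0.08, adjusted p = 0.993). ATP2C1, the Golgi pump of Hailey-Hailey disease, also did not pass (-0.07 ± 0.08, adjusted p = 0.604), whereas its close relative ATP2C2 had 7.86, 12.5 and 14.6 CPM in controls and 26.2, 24.5 and 24.9 CPM in OE libraries (1.11 ± 0.18, adjusted p = 0.000112). ATP2B4, a plasma membrane calcium pump, had 194, 209 and 218 CPM in controls and 179, 153 and 125 CPM in OE libraries and fell in every OE library below the controls (-0.45 ± 0.11, adjusted p = 0.00528). RYR1, a calcium release channel, fell at a low level, from 3.97 to 1.37 CPM (-1.58 ± 0.39, adjusted p = 0.00561). CALM2, a calmodulin gene, rose from 304 to 370 CPM (0.29 ± 0.09, adjusted p = 0.0343), but not without any of the control libraries or OE library 3 (adjusted p up to 0.154). Of the store-operated entry genes, STIM1 (-0.17 ± 0.09, adjusted p = 0.219) and ORAI1 (0.41 ± 0.15, adjusted p = 0.054) did not pass. ORAI1, the channel subunit, did without OE library 1 (adjusted p = 0.0443). ITPR3, an IP3 receptor, had 301, 330 and 352 CPM in controls and 372, 424 and 280 CPM in OE libraries and did not pass (0.13 ± 0.11, adjusted p = 0.444), but did without OE library 3, its lowest (log2 fold change 0.29, adjusted p = 0.0109). Calcium-binding S100 proteins were mostly level: 2 of 13 fell and 0 rose (15.4%, against 18.6% of all genes called and 9.34% lower). Both were clear of the controls, S100P with 195, 189 and 181 CPM in controls and 97.1, 89 and 125 CPM in OE libraries (-0.86 ± 0.10, adjusted p = 1.91e-06) and S100A6 with 446, 344 and 329 CPM in controls and 204, 181 and 251 CPM in OE libraries (-0.81 ± 0.11, adjusted p = 1.49e-05). With 1 library left out, the higher calcium genes numbered as few as 1 (without any control library) and the lower ones 2 (without any library but OE library 3).

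Genes of cell division rose as a block. Of 51 tested mitosis and G2/M genes, 48 rose and 0 fell (94.1%, against 18.6% of all genes), with a median log2 fold change of 0.65. The groups did not overlap at any of the 51, while over all genes they did not overlap at 34.8%. In the 3 OE libraries the list's median stood 0.56, 0.67 and 0.65 above the control mean. MYBL2, a transcription factor of the cell cycle, had 91.2, 88.4 and 87.4 CPM in controls and 190, 217 and 211 CPM in OE libraries, 2.32-fold higher (1.21 ± 0.08, adjusted p = 2.45e-10). CDC25B, a phosphatase that activates mitotic kinases, had 111 ± 9.75 CPM in control and 208 ± 3.91 CPM in OE cells (0.90 ± 0.08, adjusted p = 6.31e-08). CCNA2, cyclin A2, had 44.7, 54.5 and 56.5 CPM in controls and 88.1, 97 and 97.4 CPM in OE libraries (0.86 ± 0.11, adjusted p = 5.52e-06). Every OE library of these 3 genes stood above every control library. CDC20, an activator of the anaphase-promoting complex, rose from 107 to 170 CPM, TACC3, a spindle protein, from 84.6 to 140 CPM and ANLN, a scaffold of the cytokinetic ring, from 198 to 311 CPM. The proliferation marker MKI67 had 171 ± 15.5 CPM in control and 280 ± 43.3 CPM in OE cells (0.71 ± 0.10, adjusted p = 2.83e-05), and CDK1, the mitotic kinase, rose from 57.1 to 93.2 CPM (0.71 ± 0.12, adjusted p = 0.000144); both were picked after their values were seen. Between 45 and 48 members were higher with 1 library left out. In bulk RNA, a larger share of dividing cells and more of these mRNAs per cell cannot be told apart.

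DNA replication and G1/S genes gave 37 higher and 4 lower of 53 tested (77.4%), with a median of 0.63. RRM2, a subunit of the ribonucleotide reductase that makes DNA precursors, had 118, 129 and 133 CPM in controls and 223, 268 and 292 CPM in OE libraries (1.05 ± 0.10, adjusted p = 8.33e-08). UHRF1, which carries DNA methylation through replication, had 56.2, 63.3 and 75.4 CPM in controls and 113, 149 and 127 CPM in OE libraries (1.00 ± 0.11, adjusted p = 1.11e-06). OE libraries lay above the controls for both. The replicative helicase subunits MCM7 (from 136 to 228 CPM) and MCM3 (from 75.1 to 129 CPM) rose too (0.75 ± 0.08 and 0.79 ± 0.09, adjusted p = 6.1e-07 and 1.11e-06). E2F1, the transcription factor of S-phase entry, rose from 14.5 to 33.9 CPM (1.23 ± 0.15, adjusted p = 2.2e-06), while cyclin D1 (CCND1) had 367 ± 8.51 CPM in control and 387 ± 21.7 CPM in OE cells and did not pass (0.07 ± 0.08, adjusted p = 0.568). The members that fell were not replication enzymes but inhibitors of cyclin-dependent kinases and cyclin D2. CDKN2A, which encodes the inhibitor p16 and the MDM2-binding protein p14ARF, had 15.4, 20.6 and 15.5 CPM in controls and 3.1, 3.83 and 2.84 CPM in OE libraries. CDKN2B, its neighbour, which encodes p15, had 161, 156 and 154 CPM in controls and 63.1, 55.6 and 56.5 CPM in OE libraries. The highest OE library was well under the lowest control library for both genes, a 5.27-fold and a 2.69-fold lower mean (-2.41 ± 0.20, adjusted p = 1.7e-08, and -1.43 ± 0.08, adjusted p = 2.13e-11). KO cells, which share the same controls, had a mean of 20.3 CPM of CDKN2A and 150 CPM of CDKN2B. The genes adjoin on GRCh38 chromosome 9, CDKN2A at 21967753 to 21995301 and CDKN2B at 22002903 to 22009305, both on the minus strand, and 15.4% of the exon bases of CDKN2A overlap other genes. Both lie in the window from 20 to 30 Mb, where 4 of 19 tested genes fell, these included, and 1 rose (median -0.18). The window's median in OE libraries 1 to 3 was -0.18, -0.26 and -0.26 relative to the control mean. The window from 0 to 10 Mb had 7 of 28 lower and 1 higher (median -0.20). Between them, the window from 10 to 20 Mb had 4 of 16 lower and 1 higher, but a median of only -0.02. Over all genes 9.34% were lower. The part of the region in the fall of these genes was not tested. CDKN1C, which encodes p57, fell from 106 to 46.2 CPM (-1.21 ± 0.17, adjusted p = 1.45e-05) and CCND2, cyclin D2, from 131 to 81.1 CPM (-0.68 ± 0.10, adjusted p = 1.63e-05). CDKN1C, CCND2, E2F1 and CCND1 were named after their values were seen.

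The promoters of mitotic genes hold a common element, the cell cycle genes homology region, recognised by the DREAM and MYBL2-MuvB complexes. Its core TTTGAA was searched on both strands in 300 bases per gene, from 250 before the transcription start to 50 after, in RefSeq promoters on GRCh38.p14. It was found in 15.4% of 27305 promoters and in 27 of 41 mitosis genes that rose and had a promoter in the table (65.9%). Of the other 4 members with a promoter in the table, 3 held it: SPC25, which did not pass, and PRC1 and NUSAP1, which were not tested. CDC25C, which did not pass, had no match. These 4 were named after their values were seen. The promoters of CDC20 (chr1:43358731-43359030, plus strand) and ANLN (chr7:36389612-36389911, plus strand) are shown. These genes had the smallest p among members that rose and held a match. Each holds the core on both strands. Capitals mark matches to TTTGAA or, where the match is on the opposite strand, TTCAAA.
CDC20: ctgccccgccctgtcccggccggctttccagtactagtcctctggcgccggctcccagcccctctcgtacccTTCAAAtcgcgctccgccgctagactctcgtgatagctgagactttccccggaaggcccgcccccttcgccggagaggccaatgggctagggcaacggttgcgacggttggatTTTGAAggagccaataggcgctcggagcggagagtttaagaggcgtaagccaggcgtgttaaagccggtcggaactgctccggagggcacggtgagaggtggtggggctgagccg
ANLN: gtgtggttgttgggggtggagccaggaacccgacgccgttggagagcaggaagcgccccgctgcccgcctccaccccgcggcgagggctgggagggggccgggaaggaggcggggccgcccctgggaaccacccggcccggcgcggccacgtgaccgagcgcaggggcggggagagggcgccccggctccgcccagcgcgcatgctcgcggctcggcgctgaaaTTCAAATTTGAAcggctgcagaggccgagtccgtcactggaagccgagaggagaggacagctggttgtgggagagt
In CDC20 the matches begin 178 and 65 bases before the start, and in ANLN they adjoin, beginning 26 and 20 bases before it. A match in these letters is not evidence of binding.

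Replication-dependent histone genes moved the other way from the replication enzymes. Of 48 listed genes 16 reached the count filter, and 10 of those fell and 0 rose (62.5%), with a median log2 fold change of -1.36. Most mRNA of this class lacks a poly-A tail, and the libraries were poly-A selected, so these counts cover the minor polyadenylated share. H2AC6 had 35.9, 28.8 and 26.6 CPM in controls and 12.6, 9.78 and 10.6 CPM in OE libraries (-1.47 ± 0.14, adjusted p = 7.33e-08). H2BC5 had 18, 11.8 and 12 CPM in controls and 2.43, 3.33 and 3.57 CPM in OE libraries (-2.14 ± 0.23, adjusted p = 4.1e-07). Neither gene's groups overlapped, and H4C8 (from 9.12 to 1.9 CPM) and H1-2 (from 14.2 to 5.83 CPM) fell likewise. In OE libraries 1 to 3 the list's median lay at -1.08, -1.63 and -1.03 relative to the control mean.

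Targets of the tumour suppressor p53 were lower. Of 29 tested, 16 fell and 3 rose (65.5%), with a median of -0.34 and with OE library medians of -0.32, -0.32 and -0.35 relative to the control mean. MDM2, the ubiquitin ligase that p53 induces and that degrades it, had 222, 264 and 264 CPM in controls and 161, 158 and 158 CPM in OE libraries. TP53INP1, a stress protein that promotes autophagy and cell death, had 57.1, 59.3 and 64.9 CPM in controls and 27.7, 27.7 and 21.1 CPM in OE libraries. RRM2B, the p53-inducible ribonucleotide reductase subunit, had 90.5, 86.9 and 90.1 CPM in controls and 51.9, 53.8 and 48.1 CPM in OE libraries. In none of these did an OE library reach a control library (-0.65 ± 0.09, adjusted p = 1.17e-05 for MDM2, -1.26 ± 0.12, adjusted p = 1.28e-07 for TP53INP1 and -0.80 ± 0.09, adjusted p = 9.76e-07 for RRM2B). BTG2, an antiproliferative gene, fell from 219 to 131 CPM (-0.74 ± 0.09, adjusted p = 3.76e-06), TP53I3, a quinone oxidoreductase, from 177 to 107 CPM (-0.72 ± 0.09, adjusted p = 2.58e-06). CDKN1A, which encodes p21, fell less, from 669 to 524 CPM (-0.35 ± 0.08, adjusted p = 0.00184). The risers were GADD45A (from 111 to 164 CPM, 0.56 ± 0.09), a stress sensor also controlled by other factors, PLK3 (from 12.3 to 22 CPM, 0.83 ± 0.17), a kinase, and the death receptor TNFRSF10A (from 19.1 to 25.1 CPM, 0.40 ± 0.14), whose adjusted p of 0.05 was lost when any library except OE library 1 was left out (up to 0.157). CDKN1A, PLK3 and TNFRSF10A were named after their values were seen. Between 12 and 14 members fell with 1 library left out.

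**Figure D2:**
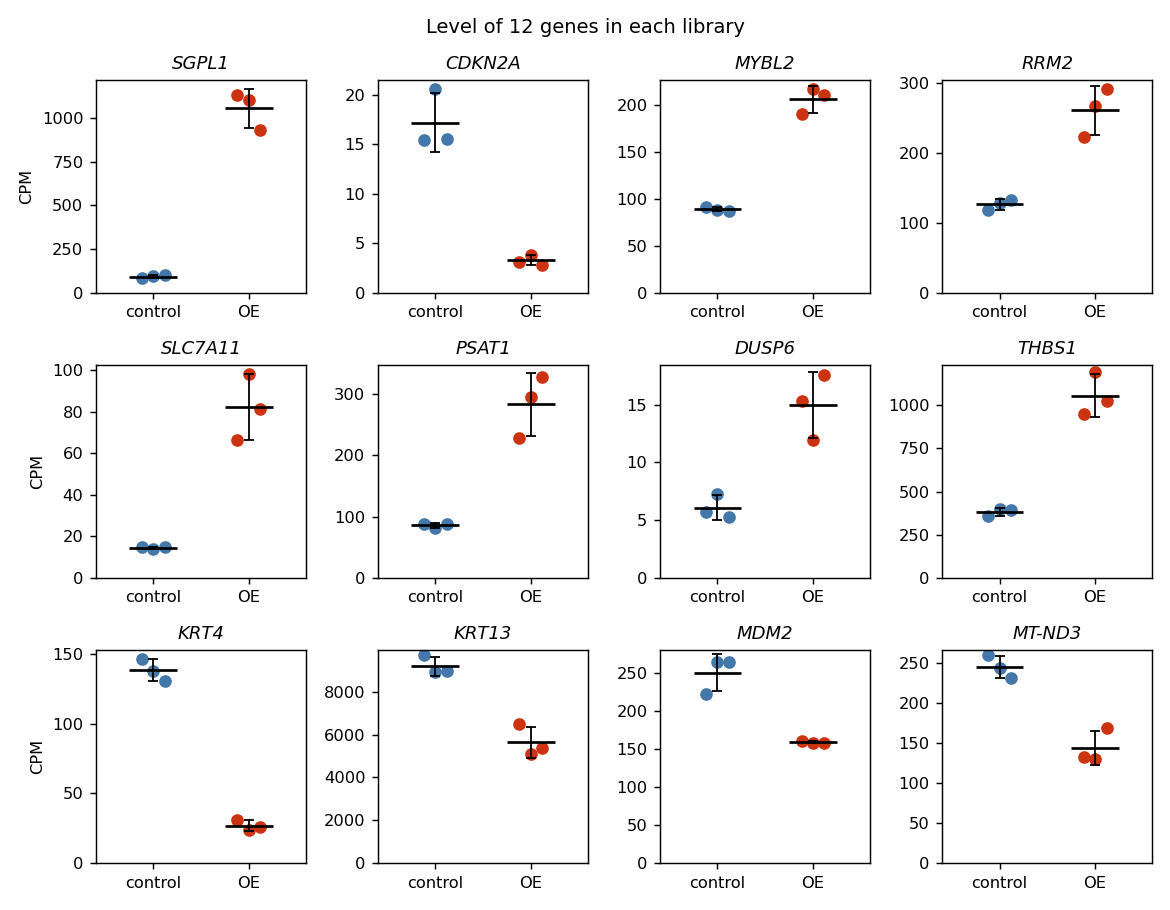
Each panel shows the level in CPM (vertical axis from 0) of a gene in the 3 control (blue) and 3 OE (red) libraries; horizontal bars are means and error bars SD. The groups do not overlap in any of the 12 panels, with SGPL1, MYBL2, RRM2, SLC7A11, PSAT1, DUSP6 and THBS1 higher and CDKN2A, KRT4, KRT13, MDM2 and MT-ND3 lower in OE cells.

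Most genes of amino acid supply and tRNA charging rose. ATF4 is the transcription factor of the amino acid response, whose known targets include amino acid transporters, serine and one-carbon enzymes and cytosolic tRNA synthetases. Of 42 tested members of this list 29 rose and 2 fell (73.8%), with a median log2 fold change of 0.79 and 11 members past 2-fold. SLC7A11, the cystine transporter, had 15, 14 and 14.6 CPM in controls and 66.5, 98.3 and 81.3 CPM in OE libraries, 5.65-fold higher (2.50 ± 0.15, adjusted p = 2.13e-11). PSAT1, of serine synthesis, had 87.6, 80.9 and 88.1 CPM in controls and 228, 295 and 329 CPM in OE libraries (1.73 ± 0.10, adjusted p = 3.45e-11). PCK2, the mitochondrial phosphoenolpyruvate carboxykinase, had 43.7, 46.9 and 40.4 CPM in controls and 125, 142 and 157 CPM in OE libraries (1.69 ± 0.10, adjusted p = 3.45e-11). OE library 1 was the lowest of the OE libraries for all 3 genes and still stood above every control library. STC2, a secreted glycoprotein that inhibits the protease PAPPA, rose from 12.8 to 70.5 CPM (2.46 ± 0.16, adjusted p = 1.79e-10). SLC7A5, the large neutral amino acid transporter, was among the 12 largest gains in CPM, rising from 1693 to 2879 CPM (0.77 ± 0.08, adjusted p = 4.59e-07). GARS1, glycyl-tRNA synthetase, had 178 ± 6.77 CPM in control and 333 ± 28 CPM in OE cells (0.91 ± 0.08, adjusted p = 3.17e-08). With 1 library left out, 28 to 30 members were higher. The 11 members that did not pass included ASNS, CHAC1, CTH, SLC38A2, ALDH18A1 and NARS1, named after their values were seen.

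ATF4 mRNA, which is mainly regulated at translation, had 203, 192 and 188 CPM in controls and 173, 241 and 256 CPM in OE libraries. OE library 1 was below all controls and the others above them, so the groups overlapped and the gene did not pass (0.20 ± 0.11, adjusted p = 0.207). Without OE library 1 it did (0.35, adjusted p = 0.00594). The list's median relative to control was likewise lowest in OE library 1, at 0.60 against 0.86 and 0.80 in the others. The 2 members that fell were DDIT3, the death-promoting factor CHOP, from 2.77 to 1.05 CPM (-1.41 ± 0.40, adjusted p = 0.0137), and SESN2, a stress-induced inhibitor of mTORC1, from 29.3 to 23 CPM (-0.35 ± 0.12, adjusted p = 0.0415). DDIT3 lost its call without control library 3 or OE library 3 (adjusted p up to 0.0702), and 39.6% of its exon bases lie in other genes. SESN2, which is also among the p53 targets, lost it with any library left out (0.0653 to 0.153). ATF4 and SESN2 were named after their values were seen. The unfolded protein response, which shares DDIT3 with this list, gave 3 higher and 1 lower of 24 tested (16.7%, near the 18.6% of all genes), with a median of 0.05. XBP1, its transcription factor, rose from 56.3 to 81.5 CPM (0.54 ± 0.10, adjusted p = 0.000288), and HSPA5, the main chaperone of the endoplasmic reticulum, from 528 to 629 CPM (0.25 ± 0.08, adjusted p = 0.022). HSPA5 lost its call without any control library or OE library 2 (adjusted p up to 0.0937), and 1 member was then higher.

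Glycine and one-carbon enzymes overlapped in part with the ATF4 list, and 7 of 15 rose and 2 fell (60%, median 0.27). ALDH1L2, a mitochondrial folate enzyme, had the largest rise at few counts, 17 in control and 98 in OE libraries in all (2.28 ± 0.66, adjusted p = 0.0168). Its call was lost without control library 1 or 2 or OE library 1 (adjusted p up to 0.0971), and without control library 3 its log2 fold change was 4.14. Other mitochondrial folate enzymes rose at higher levels, MTHFD2 with 40.2, 38.7 and 39.2 CPM in controls and 79.5, 107 and 116 CPM in OE libraries (1.36 ± 0.12, adjusted p = 2.23e-08), MTHFD1L from 45.8 to 78.1 CPM (0.78 ± 0.11, adjusted p = 2.57e-05) and SHMT2 from 156 to 231 CPM (0.56 ± 0.08, adjusted p = 1.69e-05). All MTHFD2 values of OE cells lay above the controls. GLDC, of the glycine cleavage system, which breaks down glycine, had 3.06, 3.27 and 3.71 CPM in controls and 0.664, 1.21 and 1.24 CPM in OE libraries and fell (-1.64 ± 0.29, adjusted p = 0.00026). Without control library 1 or 2, 4 members were higher, and without either of these or OE library 2, 1 was lower.

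ATF4 binds C/EBP-ATF composite elements, for which TGATGNAA was searched on both strands in the same promoters. It was present in 3.67% of all 27305 promoters, in 7 of the 22 members that rose and had a promoter in the table (31.8%) and in 4 of 14 other members (28.6%). Promoters of 3 genes of the list that rose are shown: MARS1, methionyl-tRNA synthetase (chr12:57487818-57488117, plus strand), SLC3A2, the heavy chain partner of SLC7A5 and SLC7A11 (chr11:62881449-62881748, plus strand), and AARS1, alanyl-tRNA synthetase (chr16:70289457-70289756, minus strand). They were chosen for the match after their values were seen. Capitals mark the match, which in each is on the strand opposite to the gene and so reads as the reverse complement.
MARS1: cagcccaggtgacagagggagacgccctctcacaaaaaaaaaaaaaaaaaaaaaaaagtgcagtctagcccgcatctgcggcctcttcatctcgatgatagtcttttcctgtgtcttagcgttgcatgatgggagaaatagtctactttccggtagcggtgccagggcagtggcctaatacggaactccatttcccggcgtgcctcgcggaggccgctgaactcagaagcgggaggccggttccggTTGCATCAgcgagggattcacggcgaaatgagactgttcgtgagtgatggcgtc
SLC3A2: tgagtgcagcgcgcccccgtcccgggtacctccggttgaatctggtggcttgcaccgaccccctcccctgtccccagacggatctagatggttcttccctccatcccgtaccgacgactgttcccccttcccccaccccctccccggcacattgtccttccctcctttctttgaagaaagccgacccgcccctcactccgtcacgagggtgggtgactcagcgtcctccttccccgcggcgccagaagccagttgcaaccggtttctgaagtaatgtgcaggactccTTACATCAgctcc
AARS1: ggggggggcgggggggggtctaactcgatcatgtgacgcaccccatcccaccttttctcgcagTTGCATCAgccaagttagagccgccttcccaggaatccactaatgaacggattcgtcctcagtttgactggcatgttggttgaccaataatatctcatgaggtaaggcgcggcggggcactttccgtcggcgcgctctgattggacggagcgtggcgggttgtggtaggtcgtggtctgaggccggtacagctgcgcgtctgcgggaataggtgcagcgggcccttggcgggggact
MARS1 rose from 161 to 308 CPM (0.94 ± 0.08, adjusted p = 3.78e-08), SLC3A2 from 509 to 923 CPM (0.86 ± 0.08, adjusted p = 9.06e-08) and AARS1 from 155 to 279 CPM (0.85 ± 0.10, adjusted p = 2.16e-06). No OE library overlapped the controls for these genes. The matches begin 4 bases before the start in MARS1, 37 bases after it in SLC3A2 and 187 bases before it in AARS1.

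The EGF receptor pathway, the main growth signal of keratinocytes, rose at its ligands and at the feedback genes induced by ERK. Of 26 tested members 16 rose and 2 fell (69.2%), with a median of 0.50. Among ligands, AREG (amphiregulin) had 74.4, 82.2 and 82.1 CPM in controls and 110, 132 and 176 CPM in OE libraries (0.81 ± 0.12, adjusted p = 3.34e-05) and EREG (epiregulin) had 17.9, 21.7 and 23.7 CPM in controls and 32.1, 35.5 and 41.1 CPM in OE libraries (0.78 ± 0.13, adjusted p = 0.000166). OE libraries exceeded controls for both. Among the feedback genes, DUSP6, the phosphatase that inactivates ERK, had 5.68, 7.27 and 5.28 CPM in controls and 15.3, 11.9 and 17.6 CPM in OE libraries (1.30 ± 0.21, adjusted p = 7.33e-05). PHLDA1 had 35, 37 and 38 CPM in controls and 68.5, 83.8 and 81.9 CPM in OE libraries (1.09 ± 0.10, adjusted p = 7.33e-08). ERRFI1, an inhibitor of the EGF receptor kinase, rose from 145 to 208 CPM (0.52 ± 0.08, adjusted p = 3.93e-05), and IER3, an early response gene, from 6.68 to 16.7 CPM (1.33 ± 0.19, adjusted p = 2.63e-05). Of DUSP6 and IER3, 28.6% and 32.9% of exon bases lie in other genes. Among receptors, EGFR rose from 326 to 406 CPM (0.31 ± 0.09, adjusted p = 0.0116), though not without control library 1 or OE library 2 (adjusted p up to 0.0944). The members that fell were its relatives ERBB3, with 93.1, 85.8 and 86.6 CPM in controls and 67.2, 62.6 and 52.7 CPM in OE libraries (-0.55 ± 0.11, adjusted p = 0.00101), and ERBB2, from 265 to 208 CPM (-0.35 ± 0.08, adjusted p = 0.00468). All 3 receptors were named after their values were seen.

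Immediate early and AP-1 genes as a list did not follow, with 3 higher and 2 lower of 16 (31.2%, against 18.6% of all genes, median 0.02). EGR1 (from 14.9 to 25.6 CPM, 0.78 ± 0.12), MAFF (from 10.2 to 20.8 CPM, 1.04 ± 0.18) and the AP-1 subunit FOSL1 (from 10.8 to 21.7 CPM, 1.01 ± 0.18) rose, and KLF10, a TGF-beta-induced repressor, fell from 75.1 to 54.7 CPM (-0.46 ± 0.09). Their adjusted p values were 5.79e-05, 0.00016, 0.000223 and 0.000499. The lower count became 1 when any library except OE library 1 was left out. YAP and TEAD targets gave 7 higher and 1 lower of 19 (42.1%, median 0.17). F3, tissue factor, had 188, 188 and 191 CPM in controls and 322, 430 and 441 CPM in OE libraries, above the controls in each OE library (1.07 ± 0.11, adjusted p = 2.37e-07), and CCN1, a matrix-associated signalling protein, had 28.3, 23.2 and 22.2 CPM in controls and 39.4, 40.4 and 51.5 CPM in OE libraries (0.84 ± 0.13, adjusted p = 7.37e-05). AMOTL2 (0.51), NT5E (0.72), FJX1 (0.78) and the factor TEAD4 (0.85) rose as well. In the WNT and BMP list 5 rose and 3 fell of 32 (25%, against 18.6% of all genes). WNT10A, a ligand needed for skin appendages, had 48.2, 45.8 and 51.6 CPM in controls and 19.3, 14.1 and 14.2 CPM in OE libraries (-1.62 ± 0.13, adjusted p = 4.77e-09), while FST (follistatin), an activin and BMP antagonist, had 10.1, 10.3 and 12.2 CPM in controls and 34.2, 45.4 and 62.4 CPM in OE libraries (2.13 ± 0.21, adjusted p = 1.41e-07). The groups were far apart for both genes. SFRP1, a secreted WNT antagonist, rose from 82.9 to 161 CPM (0.96 ± 0.10, adjusted p = 1.65e-07), and WNT5B from 9.27 to 17 CPM (0.87 ± 0.18, adjusted p = 0.0012). The higher count fell to 3 without control library 1 or 3. Of 18 Notch pathway genes 0 rose and 1 fell (5.56%, against 18.6% of all genes), the receptor NOTCH3, from 268 to 173 CPM (-0.64 ± 0.10, adjusted p = 8.27e-05). With 1 library left out, up to 1 rose (without OE library 1) and up to 2 fell (without control library 1 or OE library 1).

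Differentiation genes changed in both directions. Of 32 tested cornified envelope and terminal differentiation genes 12 fell and 5 rose (53.1%), with a median of -0.22. KRT4, a keratin of mucosal suprabasal cells, had 147, 138 and 131 CPM in controls and 31, 23.5 and 26 CPM in OE libraries, 5.16-fold lower (-2.37 ± 0.10, adjusted p = 7.76e-14). KRT13, its partner, had 9712, 8921 and 8958 CPM in controls and 6470, 5096 and 5381 CPM in OE libraries and was still among the most abundant mRNAs (-0.70 ± 0.09, adjusted p = 2.82e-06). No OE library came near the controls for either gene. The kallikreins KLK11 (from 27 to 13.6 CPM) and KLK6 (from 9.82 to 4.29 CPM), proteases of the shedding horny layer, fell (-0.97 ± 0.17 and -1.21 ± 0.24), as did the citrullinating enzyme PADI3 at low counts (76 against 20 in all, -2.13 ± 0.42). KLK13, a further kallikrein, had the largest fall of the list at lower counts still, 69 against 11 in all (-2.78 ± 0.68, adjusted p = 0.00493; named after its values were seen). Its log2 fold change was -3.74 without OE library 1 and -2.07 without OE library 3, and the call held in both. SPRR1B, a cornified envelope precursor, went the other way with 14.7, 15.4 and 13.5 CPM in controls and 24.5, 23.4 and 34.1 CPM in OE libraries (0.92 ± 0.17, adjusted p = 0.0003). KRT10, the keratin of suprabasal epidermis, had 61.9, 57.1 and 50.6 CPM in controls and 47.1, 37.9 and 46.7 CPM in OE libraries (-0.36 ± 0.12, adjusted p = 0.0318). IVL (involucrin) had 106, 98.5 and 93.3 CPM in controls and 85.1, 81.9 and 70.1 CPM in OE libraries (-0.33 ± 0.10, adjusted p = 0.0202). TGM1, the transglutaminase that crosslinks the envelope, had 89.4, 87.7 and 79.7 CPM in controls and 112, 109 and 99.8 CPM in OE libraries (0.32 ± 0.09, adjusted p = 0.019). The groups did not overlap for these 3 genes, but their calls rested on single libraries. KRT10 lost its call without control library 1 or 2 or OE library 2 (adjusted p up to 0.177). IVL lost it without control library 1 or 2 or OE library 3 (up to 0.107), and TGM1 without control library 2 or 3 or OE library 1 or 2 (up to 0.109). The higher members numbered 3 without any library but OE library 3.

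Barrier lipid and inherited ichthyosis genes gave 5 higher and 6 lower of 34 (32.4%, against 18.6% of all genes, median 0.04). The risers included 2 connexins of gap junctions that are neighbours on GRCh38 chromosome 13 (minus strand), GJB2 at 20187463 to 20192938 and GJB6 at 20221962 to 20232365. GJB2 had 25.2, 23.3 and 29.8 CPM in controls and 76.5, 97 and 112 CPM in OE libraries (1.87 ± 0.13, adjusted p = 8.87e-10). GJB6 had 1.64, 0.421 and 0.899 CPM in controls and 5.09, 6.25 and 6.64 CPM in OE libraries (2.60 ± 0.41, adjusted p = 7.11e-05). Every OE library was above every control library, with the log2 fold change of GJB6 ranging from 2.23 without control library 2 to 3.18 without control library 1. The fatty acid desaturases FADS1 and FADS2, also neighbours (chromosome 11, 61799627 to 61829318 and 61792980 to 61867354, with overlapping spans on opposite strands), fell together, FADS1 with 52.1, 51.2 and 51.6 CPM in controls and 18.5, 19.7 and 16 CPM in OE libraries (-1.52 ± 0.11, adjusted p = 8.94e-10) and FADS2 with 9.6, 12.6 and 9.78 CPM in controls and 4.43, 3.02 and 3.06 CPM in OE libraries (-1.62 ± 0.23, adjusted p = 2.22e-05). Counting took no account of strand as far as the headers state, but only 5.57% and 5.11% of their exon bases are shared. ABCA12, the lipid transporter mutated in harlequin ichthyosis, had 245, 253 and 251 CPM in controls and 182, 168 and 136 CPM in OE libraries (-0.62 ± 0.09, adjusted p = 2.14e-05). The higher count was 2 without control library 2, and 3 without control library 3 or OE library 1. Of 34 junction genes 5 rose and 3 fell (23.5%, against 18.6% of all genes). The largest fall was that of TJP3 (ZO-3), from 46 to 11.4 CPM (-2.04 ± 0.19, adjusted p = 4.84e-08), and CLDN4 rose from 241 to 300 CPM (0.32 ± 0.08, adjusted p = 0.00386). Desmoplakin (DSP), the desmosome's link to keratin, had 1912, 1999 and 2160 CPM in controls and 2237, 2148 and 1645 CPM in OE libraries and did not pass (-0.01 ± 0.10, adjusted p = 0.964). Without any control library or OE library 2, 1 junction gene was lower.

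Basal keratinocyte and hemidesmosome genes split, with 9 higher and 6 lower of 32 (46.9%, median 0.01). The integrin subunits ITGB4, with 1300, 1432 and 1500 CPM in controls and 1913, 2125 and 1978 CPM in OE libraries (0.51 ± 0.08, adjusted p = 5.06e-05), and ITGA6, its partner in hemidesmosomes, from 699 to 925 CPM (0.40 ± 0.08, adjusted p = 0.000436), rose with the basal keratin KRT14, which had 5648, 5313 and 5399 CPM in controls and 6946, 6843 and 7807 CPM in OE libraries (0.40 ± 0.08, adjusted p = 0.000466). OE libraries exceeded the controls in each. COL4A2, a basement membrane collagen, rose as well (0.42 ± 0.08, adjusted p = 0.000407), and so did ITGA2, a collagen receptor subunit, from 69.1 to 115 CPM (0.74 ± 0.11, adjusted p = 2.13e-05). KRT5, the partner of KRT14, had 10818, 11070 and 11161 CPM in controls and 10851, 10406 and 11177 CPM in OE libraries and did not pass (-0.03 ± 0.08, adjusted p = 0.854). KRT15, a keratin of resting basal cells, had 2798, 2807 and 2751 CPM in controls and 1716, 1224 and 1279 CPM in OE libraries (-0.99 ± 0.10, adjusted p = 3.18e-07). All OE libraries lay far below the controls. LAMC1, a laminin chain, fell from 986 to 721 CPM (-0.45 ± 0.10, adjusted p = 0.00207; named after its values were seen). Without control library 2 or 3 the lower members numbered 2.

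Wound and stress keratinocyte genes gave 10 higher and 5 lower of 24 (62.5%, median 0.24). PLAT, the tissue plasminogen activator, had 11.7, 11.2 and 12.6 CPM in controls and 34.3, 40.7 and 45 CPM in OE libraries (1.76 ± 0.15, adjusted p = 1.07e-08). KRT17, a wound keratin, had 2887, 2888 and 2979 CPM in controls and 3714, 3787 and 4531 CPM in OE libraries (0.46 ± 0.08, adjusted p = 0.0003). Both were higher in each OE library. KRT6A had 7229, 6929 and 7163 CPM in controls and 7923, 7905 and 9064 CPM in OE libraries; the groups did not overlap, but the difference did not pass (0.22 ± 0.08, adjusted p = 0.0607). It passed with DESeq2 (adjusted p = 0.0387) and limma-voom (0.0233), and counts of KRT6A are uncertain because it has near-identical copies. KRT16, another wound keratin, fell from 192 to 128 CPM (-0.58 ± 0.10, adjusted p = 0.000173), and the membrane protease MMP14 from 644 to 494 CPM (-0.38 ± 0.08, adjusted p = 0.000804). Without control library 1 or OE library 2, 3 members were lower.

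**Figure D3:**
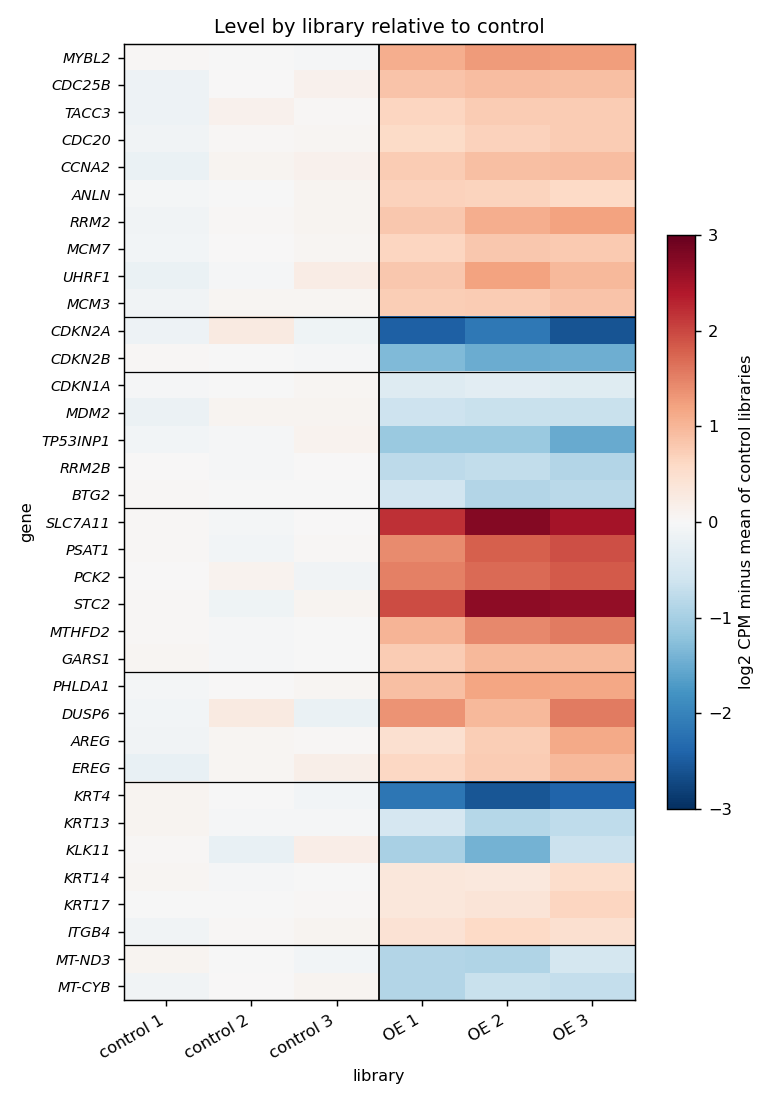
Colour shows the log2 CPM of 35 genes (rows) in each of the 6 libraries (columns) minus the mean of the control libraries; the colour scale ends at 3 either way. Black lines divide, from the top, cell division genes, CDKN2A and CDKN2B, p53 targets, ATF4 targets, EGF pathway genes, keratinocyte genes and mitochondrial mRNA; OE library 1 is the palest of the OE libraries for the ATF4 targets.

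Epidermal transcription factors leaned lower, with 12 lower and 5 higher of 32 (53.1%, median -0.20). ELF3, an epithelial ETS factor, had 206, 203 and 191 CPM in controls and 148, 109 and 96.1 CPM in OE libraries (-0.77 ± 0.11, adjusted p = 2.22e-05), and EHF, its relative, fell from 411 to 312 CPM (-0.40 ± 0.09, adjusted p = 0.00168). HOPX, a homeodomain protein of differentiating keratinocytes, fell from 7.21 to 1.89 CPM (-1.90 ± 0.28, adjusted p = 2.46e-05). KLF4, required for the skin barrier, had 36.9, 38.2 and 37.8 CPM in controls and 51.7, 64.6 and 65.6 CPM in OE libraries and rose (0.69 ± 0.11, adjusted p = 0.000109), as did the basal factor BNC1, from 102 to 131 CPM (0.37 ± 0.09, adjusted p = 0.00331). Neither ELF3 nor KLF4 overlapped between groups. The lower members numbered 5 without control library 3 and 7 without OE library 3, and the higher ones 3 without control library 1 or 3.

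Among extracellular matrix genes 9 rose and 4 fell of 36 (36.1%, median 0.17). THBS1, thrombospondin 1, had 357, 401 and 391 CPM in controls and 950, 1193 and 1024 CPM in OE libraries (1.46 ± 0.10, adjusted p = 1.85e-10). FN1, fibronectin, had 2601, 2566 and 2712 CPM in controls and 4270, 4381 and 3466 CPM in OE libraries (0.62 ± 0.09, adjusted p = 4.02e-05). OE libraries lay above controls for both, and the KO means were 115 and 821 CPM. COL12A1 rose from 37.6 to 63.6 CPM (0.76 ± 0.12, adjusted p = 7.17e-05), COL16A1 fell from 37.9 to 15.5 CPM (-1.28 ± 0.14, adjusted p = 4.68e-07). ITGA5, the fibronectin receptor subunit, rose from 110 to 182 CPM (0.73 ± 0.08, adjusted p = 7.48e-07) and TPM1, tropomyosin 1, from 54.2 to 82.3 CPM (0.61 ± 0.11, adjusted p = 0.000206), both in the epithelial mesenchymal transition list. Of that list 3 of 15 rose and 1 fell (26.7%, against 18.6% of all genes), and 0 fell without any control library or OE library 2. Of the insulin-like growth factor system, 3 of 11 rose, STC2 among them, and 1 fell (36.4%). The one that fell was IGFBP2, from 173 to 113 CPM (-0.61 ± 0.09, adjusted p = 4.15e-05). Only 1 rose without control library 1 or 2 or OE library 1. PXDN, peroxidasin, which crosslinks collagen IV, was the extreme: 730 counts in control libraries (229, 251 and 250) and 0 in each OE library, at least 288-fold lower with 3 counts over the group as the floor. The KO libraries also had 0, so PXDN was detected in the control libraries alone.

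Of 24 tested interleukins, chemokines and NF-kB targets 5 rose and 9 fell (58.3%, median -0.37), and 21 listed genes were too low to test. IL1A, the alarm cytokine stored in keratinocytes, had 7.97, 9.27 and 9.78 CPM in controls and 19.7, 27.4 and 33.5 CPM in OE libraries (1.59 ± 0.21, adjusted p = 9.99e-06). IL1B rose from 5.1 to 10.8 CPM (1.08 ± 0.22, adjusted p = 0.00117), while their antagonist IL1RN had 135, 121 and 124 CPM in controls and 86.8, 59.1 and 67.9 CPM in OE libraries (-0.83 ± 0.11, adjusted p = 5.46e-06). OE libraries were above the controls for the agonists and below for the antagonist. PTGS2, the inducible cyclooxygenase, had 79.3, 68.5 and 74.6 CPM in controls and 152, 152 and 140 CPM in OE libraries (1.00 ± 0.10, adjusted p = 1.19e-07). TNFSF10 (TRAIL), a death ligand, fell from 13.7 to 3.71 CPM (-1.85 ± 0.20, adjusted p = 6.14e-07) and TNFAIP2 from 58.9 to 21.4 CPM (-1.48 ± 0.16, adjusted p = 3.78e-07). Interferon-stimulated genes gave 0 higher and 7 lower of 37 (18.9%, against 18.6% of all genes called and 9.34% lower), with a median of -0.16. Among those lower were TRIM22 (from 74.4 to 38.2 CPM), SAMD9 (from 639 to 446 CPM), IFITM3 (from 18 to 9.66 CPM) and OAS2 (from 18.2 to 10.1 CPM). Their adjusted p values were 9.79e-07, 0.001, 0.00117 and 0.00267. Without OE library 3, 1 rose. Of 17 genes of class I antigen presentation 0 rose and 1 fell (5.88%, against 18.6% of all genes), the peptidase ERAP2, from 64.8 to 49.4 CPM (-0.39 ± 0.09, adjusted p = 0.00377). Without OE library 3, 1 rose and 3 fell, 1 rose without control library 3 and 2 fell without OE library 1.

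Fatty acid genes leaned lower, with 12 lower and 3 higher of 34 (44.1%, median -0.17). ACADM, an enzyme of fatty acid breakdown, with 103, 105 and 98.7 CPM in controls and 58.1, 51.3 and 45.8 CPM in OE libraries (-0.99 ± 0.09, adjusted p = 7.43e-08), fell, and so did the elongase ELOVL5, from 243 to 165 CPM (-0.56 ± 0.08, adjusted p = 2.05e-05), and fatty acid synthase, FASN, from 1955 to 1466 CPM (-0.42 ± 0.09, adjusted p = 0.00215). ACSL3, which activates fatty acids for lipid droplets, had 321, 319 and 327 CPM in controls and 545, 521 and 540 CPM in OE libraries and rose (0.73 ± 0.07, adjusted p = 1.12e-07). ACADM and ACSL3 did not overlap between groups. Cholesterol genes had no common direction, 6 higher and 7 lower of 34 (38.2%, median -0.06). The synthesis enzyme SC5D fell from 110 to 70 CPM (-0.65 ± 0.09, adjusted p = 7.64e-06). Glycolysis and hypoxia genes gave 10 higher and 2 lower of 32 (37.5%, median 0.19), among them NDRG1 with 50.7, 53 and 60.1 CPM in controls and 112, 125 and 120 CPM in OE libraries (1.12 ± 0.14, adjusted p = 2.57e-06), ERO1A from 70.9 to 110 CPM (0.62 ± 0.10, adjusted p = 5.67e-05) and VEGFA from 28.9 to 45.5 CPM (0.66 ± 0.13, adjusted p = 0.000693). ANGPTL4, a lipase inhibitor, had the largest rise of the list that passed, from 10.4 to 26.2 CPM (1.33 ± 0.21, adjusted p = 5.72e-05). The lower count was 1 without any control library or OE library 3. LDHA, lactate dehydrogenase, rose from 1480 to 1955 CPM (0.40 ± 0.10, adjusted p = 0.00724).

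NRF2 targets and antioxidant enzymes gave 14 lower and 2 higher of 37 (43.2%, median -0.16). ABCC2, an exporter of conjugates, had 47.6, 48 and 49.3 CPM in controls and 15.3, 15.2 and 13.6 CPM in OE libraries (-1.72 ± 0.11, adjusted p = 1.86e-10). GPX2, a glutathione peroxidase, had 34.4, 33.3 and 31.6 CPM in controls and 16.8, 11.2 and 13.5 CPM in OE libraries (-1.26 ± 0.13, adjusted p = 4.07e-07). Both were lower in all OE libraries. The aldo-keto reductases AKR1C1 (from 93.1 to 51.4 CPM, -0.86 ± 0.09) and AKR1C3 (from 56 to 30.6 CPM, -0.87 ± 0.10) fell too. They belong to a family of similar sequence, so their counts are uncertain. Ferritin heavy chain FTH1 also fell (from 879 to 566 CPM, -0.64 ± 0.08), and 63.2% of its exon bases lie in other genes. SLC7A11, which also belongs to this list, was the main exception. The higher count was 1 without control library 2 or 3 or OE library 3. Lysosomal genes gave 12 lower and 2 higher of 47 (29.8%, against 18.6% of all genes, median -0.12). Of the proteases, CTSH fell from 48.6 to 27.3 CPM (-0.83 ± 0.11, adjusted p = 4.72e-06) and CTSC rose from 127 to 199 CPM (0.65 ± 0.09, adjusted p = 1.04e-05). CTSD fell from 527 to 418 CPM (-0.34 ± 0.07, adjusted p = 0.0022), with 53.3% of its exon bases in other genes. The lower members numbered 5 without control library 1 or 3 or OE library 2, and 6 without control library 2; the higher ones then numbered 1 in each case.

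All 13 mitochondrially encoded mRNAs fell, with a median of -0.57, and the summed level was 15549 to 17573 CPM in control and 10527 to 12081 CPM in OE libraries. MT-ND3, a subunit of respiratory complex I, had 259, 243 and 231 CPM in controls and 132, 130 and 168 CPM in OE libraries (-0.77 ± 0.10, adjusted p = 4.82e-06). MT-CYB, of complex III, had 1031, 1114 and 1172 CPM in controls and 605, 699 and 674 CPM in OE libraries (-0.75 ± 0.12, adjusted p = 0.000121). The highest OE library was below the lowest control library in both. The ribosomal RNA MT-RNR2 fell from 2204 to 1294 CPM (-0.77 ± 0.09, adjusted p = 1.55e-06), and all 16 tested genes of the mitochondrial genome were lower. With 1 library left out, 11 to 13 of the mRNAs passed. Of 75 cytosolic ribosomal protein genes 0 rose and 2 fell (2.67%, against 18.6% of all genes), with a median of -0.12. OE library 3 stood apart here, with a summed level of 53779 CPM against 42954 and 41353 CPM in the other OE libraries and 46868 to 54315 CPM in controls. Without it 44 fell, 1 fell without control library 2, and none did without control library 1 or OE library 2. RPS27 fell from 278 to 211 CPM (-0.40 ± 0.11, adjusted p = 0.0127), but not without control library 1 or OE library 2 (adjusted p up to 0.152).

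**Figure D4:**
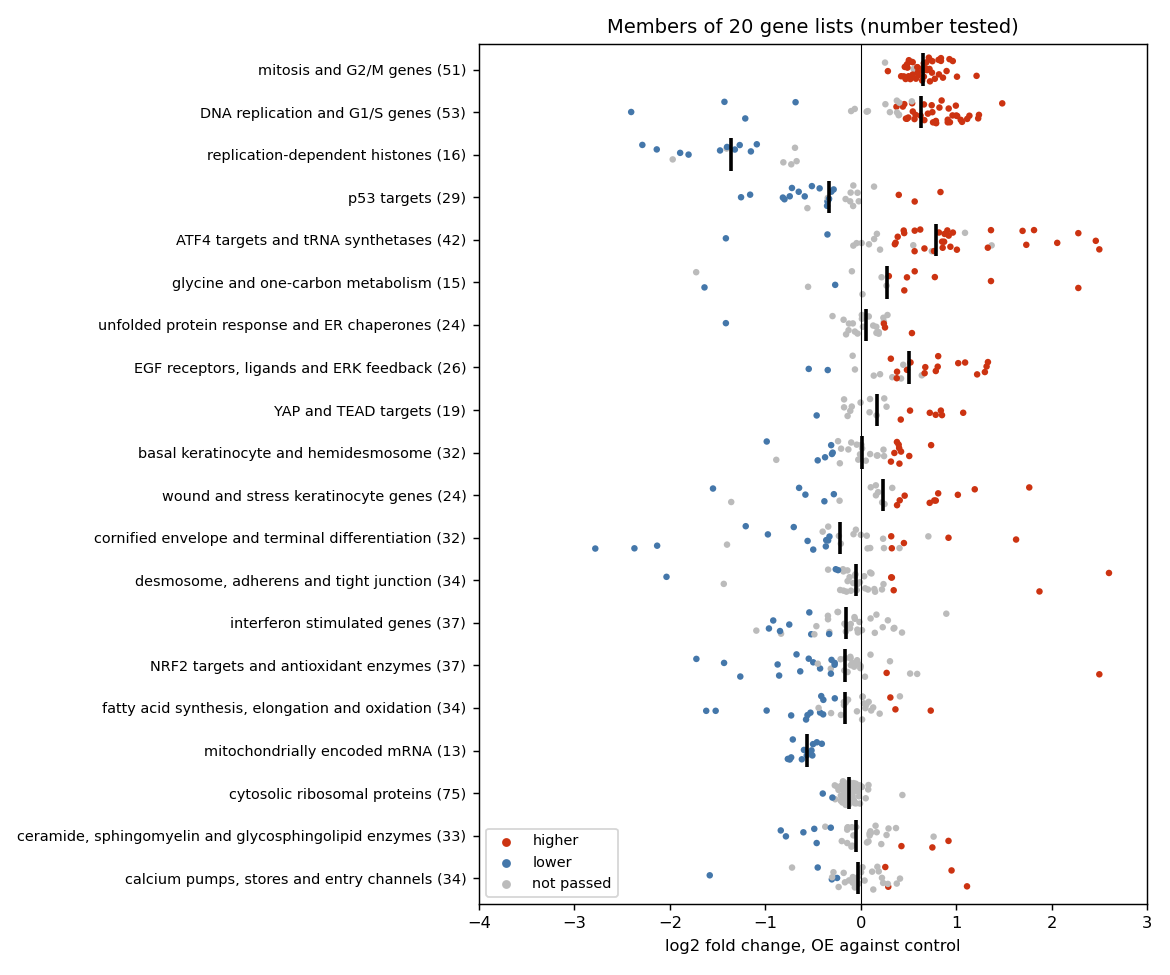
Each point is a tested gene of a list (vertical axis, with the number tested) at its log2 fold change of OE against control (horizontal axis); red genes rose, blue genes fell, grey genes did not pass, and black bars are list medians. Mitosis genes lie right of 0 with a median of 0.65, mitochondrial mRNAs left of 0 with one of -0.57, and most other lists spread to both sides.

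Of the small heat shock proteins, HSPB8 fell sharply and HSPB1 modestly. HSPB8, a chaperone of selective autophagy, had 57.6, 47.9 and 51.1 CPM in controls and 6.09, 3.63 and 4.23 CPM in OE libraries, 11.2-fold lower (-3.50 ± 0.17, adjusted p = 9.93e-13). HSPB1 (HSP27), abundant in keratinocytes, had 1445, 1438 and 1490 CPM in controls and 1005, 873 and 943 CPM in OE libraries (-0.63 ± 0.08, adjusted p = 4.24e-06). OE libraries were far below the controls for HSPB8 and clear of them for HSPB1. HSPA1A (from 37.2 to 57 CPM, 0.62 ± 0.12), whose reads are shared with the near-identical HSPA1B, and HSPA8 (from 907 to 1234 CPM, 0.44 ± 0.11) rose. In the list of 16, 5 rose and 3 fell (50%, against 18.6% of all genes). The risers numbered 2 without control library 1, and 3 without control library 2 or 3 or OE library 3.

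The largest rises beside SGPL1 among genes of at least 5 CPM were at 2 imprinted neighbours on GRCh38 chromosome 7 that are expressed from the paternal copy. SGCE (epsilon-sarcoglycan; 94524204 to 94656572, minus strand) had 8 counts in all in control and 173 in OE libraries, an 18.2-fold ratio per CPM with a 95% counting interval of 9.05 to 42.9 (4.13 ± 0.58, adjusted p = 2.34e-05). PEG10, a gene derived from a retrotransposon (94656325 to 94669695, plus strand), had 1.53, 2.32 and 2.02 CPM in controls and 15.4, 18.2 and 16.2 CPM in OE libraries (3.08 ± 0.27, adjusted p = 3.77e-08). Neither overlapped between groups, and the KO means were 0 and 0.0803 CPM. CADPS2, of vesicle exocytosis, rose from 0.97 to 7 CPM (2.83 ± 0.48, adjusted p = 0.000171) and FHL1, a LIM protein, from 2.06 to 12.1 CPM (2.54 ± 0.30, adjusted p = 1.91e-06). MARCHF4, a membrane ubiquitin ligase (from 1.81 to 11.9 CPM, 2.71 ± 0.30), and TMEM200B (from 1.57 to 8.63 CPM, 2.46 ± 0.32) were also among the 12 largest. The hormone ADM2, also called intermedin, rose from 20 to 176 counts in all (2.86 ± 0.48, adjusted p = 0.000145). Without control library 3 its log2 fold change was 3.61.

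Large falls outside the lists covered secreted and growth-related genes. SOD3, the extracellular superoxide dismutase, had 18.6, 24 and 25.4 CPM in controls and 1.77, 0.907 and 1.31 CPM in OE libraries (-4.09 ± 0.24, adjusted p = 2.13e-11). BCAS1 fell from 152 to 10 counts in all (-4.15 ± 0.54, adjusted p = 5.87e-06), with a log2 fold change of -5.52 without OE library 3. FBXO32, the ubiquitin ligase atrogin-1, had 11.7, 11 and 12 CPM in controls and 2.66, 1.61 and 1.9 CPM in OE libraries (-2.50 ± 0.23, adjusted p = 4.84e-08). The libraries of the 2 groups were apart for all 3. TP53I11, a p53-inducible gene outside the p53 list, fell from 17.9 to 3.36 CPM (-2.43 ± 0.22, adjusted p = 3.96e-08), BMF, a cell death activator, from 8.06 to 1.54 CPM (-2.42 ± 0.38, adjusted p = 5.79e-05), FRAS1, a basement membrane protein, from 9.1 to 1.47 CPM (-2.63 ± 0.33, adjusted p = 3.9e-06), TRIM31, a ubiquitin ligase, from 6.36 to 0.872 CPM (-2.87 ± 0.31, adjusted p = 4.43e-07) and CCN5, a matrix-associated protein, from 6.49 to 0.728 CPM (-3.16 ± 0.42, adjusted p = 7.64e-06). By loss of CPM, the leading nuclear gene after KRT13 was GLUL, glutamine synthetase, with 2687, 2763 and 2731 CPM in controls and 1493, 1176 and 1226 CPM in OE libraries (-1.07 ± 0.10, adjusted p = 3.96e-08). KRT81, a hair keratin with near-identical copies, fell from 1991 to 1324 CPM (-0.59 ± 0.09, adjusted p = 2.54e-05). CD24, a surface glycoprotein, fell from 2485 to 1983 CPM (-0.33 ± 0.08, adjusted p = 0.00641), though not without control library 1 (adjusted p = 0.0569). By gain, KRT14 came first, and then actin ACTB, which rose from 3886 to 5562 CPM (0.52 ± 0.08, adjusted p = 3.22e-05).

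Besides PXDN, 4 genes had 0 counts in a group and at least 30 in the other. PTH1R, the parathyroid hormone receptor (18, 8 and 6 counts in control libraries), and PALM, paralemmin (14, 9 and 9), were without counts in OE cells, each at least 12.6-fold lower. HSD11B1, the enzyme that regenerates active cortisol, had 6, 16 and 20 counts in OE libraries and none in control libraries, at least 11.8-fold higher. PDCD1LG2, the immune checkpoint ligand PD-L2, had 6, 22 and 16 counts, at least 12.4-fold higher. Unlike PXDN, PTH1R had 6, 8 and 10 counts and PALM 4, 6 and 2 in KO libraries.

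Markers of other cell types were mostly too low to test, and several of those tested differed. MITF, a melanocyte factor also expressed in other cells, fell from 94 to 62.5 CPM (-0.59 ± 0.09, adjusted p = 6.31e-05), while TYR, DCT and SOX10 stayed at 0. The epithelial adhesion molecule EPCAM rose from 69.6 to 92.8 CPM (0.41 ± 0.09, adjusted p = 0.00136) and the mucin MUC1 fell from 59.8 to 39.7 CPM (-0.60 ± 0.14, adjusted p = 0.00371). Summed over each list, melanocyte markers lay at 89.96 to 101.2 CPM in control and 60.75 to 71.38 CPM in OE libraries, and blood, endothelial and immune markers at 3.687 to 6.221 and 1.549 to 2.188 CPM. The 1 tested member of the latter list fell, with a log2 fold change of -1.34. Secretory epithelial markers summed to 116.9 to 136.2 CPM in control and 124.7 to 145.2 CPM in OE libraries, and fibroblast markers to 81 to 91.57 and 92.26 to 95.76 CPM, with neither of the 2 tested fibroblast markers passing. The part of these differences in the other results was not tested.

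Medians of the autosomes and chromosome X lay between -0.06 and 0.06, with 6.41% to 12.6% of tested genes higher and 6.30% to 12.9% lower. Within chromosomes, some 10 Mb windows leaned one way. On chromosome 1 from 190 to 250 Mb the 6 windows had medians of 0.08 to 0.20. The window from 240 to 250 Mb had 9 of 32 tested genes higher (28.1%, against 9.28% of all genes) and 0 lower. Its medians in OE libraries 1 to 3 were 0.14, 0.24 and 0.27 relative to the control mean. On chromosome 9 from 0 to 30 Mb, 25%, 25% and 21.1% of the tested genes in the 3 windows were lower, against 9.34% of all genes. Their medians were -0.20, -0.02 and -0.18. Shares of this size also occurred elsewhere. On chromosome X from 80 to 90 Mb 33.3% of 12 tested genes were lower (median -0.38). On chromosome 9 from 70 to 80 Mb 29.2% of 24 were lower, and on chromosome 3 from 20 to 30 Mb 27.8% of 18 were higher. Calls depended on level: 6.65% of genes passed in the lowest decile of mean CPM (median 1.20 CPM) and 31.7% in the highest (244.5 CPM), where the genes that passed had median absolute log2 fold changes of 2.07 and 0.36.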

How the data were processed

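Poly-A selected RNA from N/TERT keratinocytes was sequenced in 9 libraries, 3 per genotype. The authors deposited raw read counts per gene, made with featureCounts 1.5.2 with default options and an Ensembl GRCh38 annotation, per the file headers, which give no strand setting, so reads of overlapping genes on opposite strands cannot be told apart. The submitters' processing notes also name FastQC, HISAT2 and DESeq2.

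Library groups came from the titles. Genes passing edgeR's filterByExpr with a minimum count of 10 (13390 genes) were scaled by TMM and fitted with edgeR 4.0.16 (R 4.3.3, limma 3.58.1) by quasi-likelihood over all 9 libraries, which share the estimate of spread, and OE was tested against control with Benjamini-Hochberg adjustment (adjusted p under 0.05). The procedure was tested on simulated data with 200 changed genes. It recovered 49.3% of 1.5-fold, 84.6% of 2-fold and 98.5% of 4-fold changes, and 5% of its calls were false. A gene that did not pass may therefore still differ by a modest amount. Replicate correlations and chi-square statistics of counts (2.74 to 11.7 per degree of freedom within groups, highest for pairs with OE library 3) showed no library deposited 2 times. Counting intervals and floors (3 counts) cover counting error only.

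Named genes were SGPL1, the 12 largest rises and falls among called, non-overlapping genes whose higher group averaged at least 5 CPM, the 12 largest gains and losses in CPM, up to 6 members per list by smallest p, genes with 0 counts in a group and at least 30 in the other, and a set of genes of interest. Others are marked, and a few genes that met this rule are not reported here. The gene lists and members were chosen with earlier results of these data known. Symbols came from a table of gene names, and promoters from RefSeq (GRCh38.p14). Alternatives were DESeq2 1.42.0 (size factors, Wald test), limma-voom, other filters, only the 6 libraries, a replicate block, removal of a trend with gene length, thinning of OE library 3, a threshold of 0.01, and leaving out each library.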

Additional observations from a re-analysis of the deposited data

How the results depend on the processing

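SGPL1 kept its direction and call throughout, with a log2 fold change of 3.45 to 3.61 with 1 library left out. Across the alternatives other than a threshold of 0.01, 1674 to 2489 of the 2493 called genes were called again in the same direction and 0 in the opposite one. With a threshold of 0.01, 740 genes were higher and 691 lower, 3 cornified envelope genes were higher and 0 members of the ATF4 list lower. That last count was 1 with no filter on low counts, with only the 6 libraries and with the replicate block. With the replicate number as a block, 1227 genes were higher and 1241 lower. Same-numbered control and OE libraries had deviations from their group means that correlated at -0.028, 0.035 and -0.077. Differently numbered ones lay between -0.086 and 0.109. With 3 libraries per mean, these values cannot exclude that same-numbered libraries were prepared together. With 1 library left out, 159 to 217 genes were at least 2-fold higher and 208 to 288 at least 2-fold lower, 3 to 4 cornified envelope genes were higher and 0 to 1 members of the ATF4 list lower. The log2 fold change of genes that did not pass reversed with small values: ABCC1 from -0.02 (without control library 1) to 0.17, ATP2A2 from -0.04 to 0.04, ITPR3 from 0.00 (without OE library 2) to 0.29, KRT5 from -0.04 to 0.00 and DSP from -0.09 to 0.13, with DSP at 0.01 with no filter, with the length trend removed and with both that and the block. The cause was not tested. Lists with 0 calls in a direction by edgeR also had 0 by DESeq2 and limma-voom in that direction; at an unadjusted p under 0.05 these were 0 members except for 1 higher Notch, 2 higher interferon-stimulated, 3 higher antigen presentation, and 2 higher and 1 lower proteasome genes. Depth limits calls for genes of few CPM.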
